A study of Mus musculus with 12 samples.

Results

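The arrays titled amygdala KO and amygdala WT are 2 of the 12 arrays of a study of 6 mouse brain regions in mice lacking interleukin-18 (IL-18) and in wild-type controls. The comparison between them was defined by those titles and holds 1 array on each side. Of 41174 gene probes on the array, 28365 were well above background on both arrays by the scanner software's flag, and these stand for 13351 of 16355 named genes. Probes that differed by less than 1.5-fold between the amygdala KO array and the hypothalamus KO array were described apart, as the rule for the comparison asks. There were 24184 of them, called alike here, against 4109 that were not alike and 72 that were not well above background on the hypothalamus KO array. The study's question, by its title, concerned neuropeptides of the amygdala and behaviour.

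All arrays held RNA from male C57BL/6 mice of 12 weeks, per the labels, with genotype IL-18 KO or WT. The animals were F2 littermates bred from IL-18-/- mice and C57BL/6J mice, and the knockout is one of the whole animal. Each array carried an equal mixture of RNA from 5 mice, so the spread between animals was not measured. Hypothalamus, amygdala and hippocampus were taken from the same coronal level, a slice of 1 mm that lay 1.5 to 2.5 mm behind bregma. The amygdala WT and KO arrays lay on 1 slide, in the same places as the WT and KO arrays of every other region, so place and genotype cannot be told apart.

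The amygdala is a group of nuclei in the temporal forebrain that takes part in fear and emotional learning, and much of it is built from neurons of cortical and striatal type. The hypothalamus lies below the thalamus around the third ventricle, and its nuclei make peptides that govern feeding, sleep, water balance and the pituitary. Neuropeptides are cut from larger precursors, stored in dense-core granules and released onto receptors of other cells. IL-18 is a cytokine that inflammasomes activate through caspase-1 and that acts through a receptor of the interleukin-1 family.

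A level below is the log2 processed signal of a probe relative to the 75th percentile of its array, and a difference is KO minus WT in log2 unless another is named. The 75th percentile of the processed signal was 625.6 on the array labelled amygdala WT and 767.9 on the amygdala KO array. Of all gene spots, 71.4% and 73.8% were well above background on these arrays, and no spot was saturated. Repeated spots of a probe had a median SD of 0.074 and 0.072, which corresponds to 0.10 for a difference. The scanner software's own error of a difference, its spot error, lay between 0.20 and 0.22 for the leading genes, and was 0.26 for Il18. Both cover measurement on the array alone. With 1 array a side there is no replicate check and no p-value, and genes were counted by a size rule of 2-fold.

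The labels were checked before anything else. The array labelled amygdala WT went against its label. Across 24859 genes and transcripts its nearest array of the other 11 was hypothalamus WT (Pearson r = 0.993), while r was 0.981 with amygdala KO. These r describe arrays across genes, which are not independent replicates. The median absolute difference between the arrays labelled amygdala WT and hypothalamus WT was 0.11 over 28898 probes, as large as that of the hypothalamus pair. Only 0.36% of those probes were 2-fold lower on the array labelled amygdala WT and 0.64% were 2-fold higher. The amygdala KO array was nearest to hypothalamus KO (r = 0.985), at a median absolute difference of 0.24. All results below therefore compare the library labelled amygdala KO with the library labelled amygdala WT, and the hypothalamus arrays are given beside them. A difference of tissue and one of genotype cannot be told apart in this pair.

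Il18, the targeted gene on chromosome 9, separated the genotypes. Its level was 0.75 on the array labelled amygdala WT (SD 0.075 over 10 spots) and -4.35 on the amygdala KO array (SD 0.28 over 10 spots). On the hypothalamus arrays it was 0.75 for WT and -3.78 for KO. Both WT arrays were high and both KO arrays low, far apart beside the spread over spots. The difference of -5.10, 34.3-fold, stood beside -4.21 ± 0.30 (SD, n = 5 regions) elsewhere in the brain, where it ran from -4.52 to -3.73. On the amygdala KO array the probe still read 1.06 above the lowest signal counted as well above background, and the sources used here do not give whether it lies in the disrupted stretch of the gene.

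**Figure D1:**
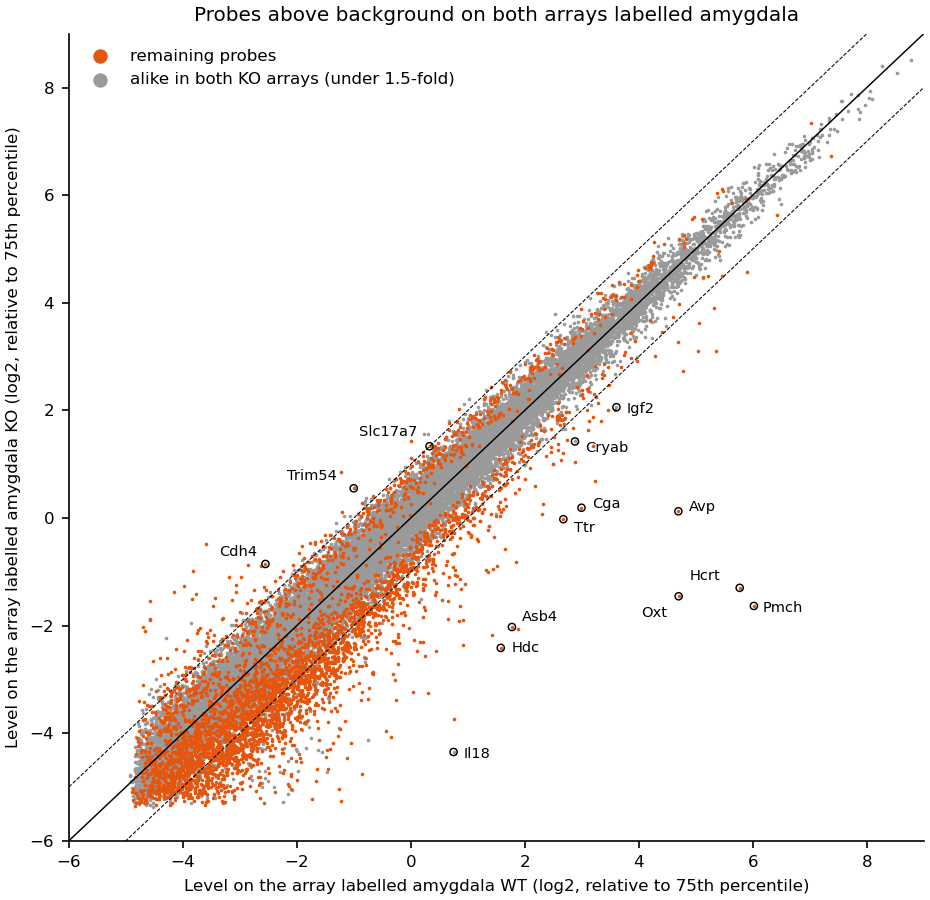
Each point is 1 probe above background on both arrays, with its level on the array labelled amygdala WT across and on the amygdala KO array upward, in log2 relative to the 75th percentile. Dashed lines mark 2-fold: Pmch (6.02 against -1.64), Hcrt and Oxt lie farthest below, and the band of probes that are not alike in both KO arrays widens at low levels.

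By the size rule, 1560 probes (5.5%) were lower on the amygdala KO array and 190 (0.67%) were higher, so that 10.9% of the calls were higher. Scaling by the array median moved this to 986 lower and 629 higher, 38.9% higher, and the median of all probes from -0.021 to 0.19. Most of the 2-fold differences were dim. At a mean level of at least -2, where 17265 probes lay, 2.65% were lower and 0.394% higher. Below it, among 11100 probes, 9.93% were lower and 1.1% higher. In the hypothalamus pair 0.604% of 30937 probes were 2-fold lower and 0.333% higher. The median absolute difference was 0.26 in the amygdala pair, against 0.11 in hypothalamus, 0.13 in olfactory bulb, 0.16 in both hippocampus and striatum and 0.20 in prefrontal cortex. Among named genes 363 of 13351 (2.72%) were 2-fold lower and 68 (0.509%) higher. Their median difference was 0.00036, with 6673 lower and 6678 higher, and the lists of genes below are read beside these values.

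At the low end of the comparison stood peptides and regulators of the hypothalamus, hormones of the pituitary, genes of the ventricular linings, and Il18 itself. Among the 15 named genes of the largest negative difference at a mean level of at least -2, Pmch, Hcrt, Oxt and Avp are peptide precursors, Hdc, Asb4 and Isl1 mark hypothalamic neurons, and Kcne2, Aqp1, Ttr and Ecrg4 are genes of the choroid plexus. The 15 largest positive differences at that level were smaller, from 1.06 to 1.70, and included the forebrain genes Slc30a3, Tbr1 and Cacng3.

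Pmch, which encodes the precursor of melanin-concentrating hormone in lateral hypothalamic neurons, had the largest difference. Its level was 6.02 on the array labelled amygdala WT and -1.64 on the amygdala KO array, beside 5.92 on hypothalamus WT and 5.93 on hypothalamus KO. Of these 4 arrays the amygdala KO array alone was low, by 202-fold against its labelled control. Elsewhere its probe was well above background on both arrays in 3 of 5 regions.

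Hcrt encodes the precursor of the orexins, which keep animals awake and drive feeding. It read 5.77 on the array labelled amygdala WT, -1.30 on the amygdala KO array, 5.48 on hypothalamus WT and 5.36 on hypothalamus KO. The pattern was that of Pmch, with 3 arrays high and 1 low, and the difference of -7.07 stood beside 0.021 ± 0.27 (SD, n = 5 regions) elsewhere. Oxt and Avp encode oxytocin and vasopressin, which magnocellular neurons send to the posterior pituitary. Oxt read 4.70 and -1.45 on the amygdala WT and KO arrays and 4.37 and 5.35 on the hypothalamus WT and KO arrays. Avp read 4.69, 0.12, 4.46 and 5.08 in that order. The amygdala KO array was the lowest of the 4 for both peptides and hypothalamus KO the highest, with differences of -6.15 and -4.57 in the amygdala pair and 0.98 and 0.62 in the hypothalamus pair.

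**Figure D2:**
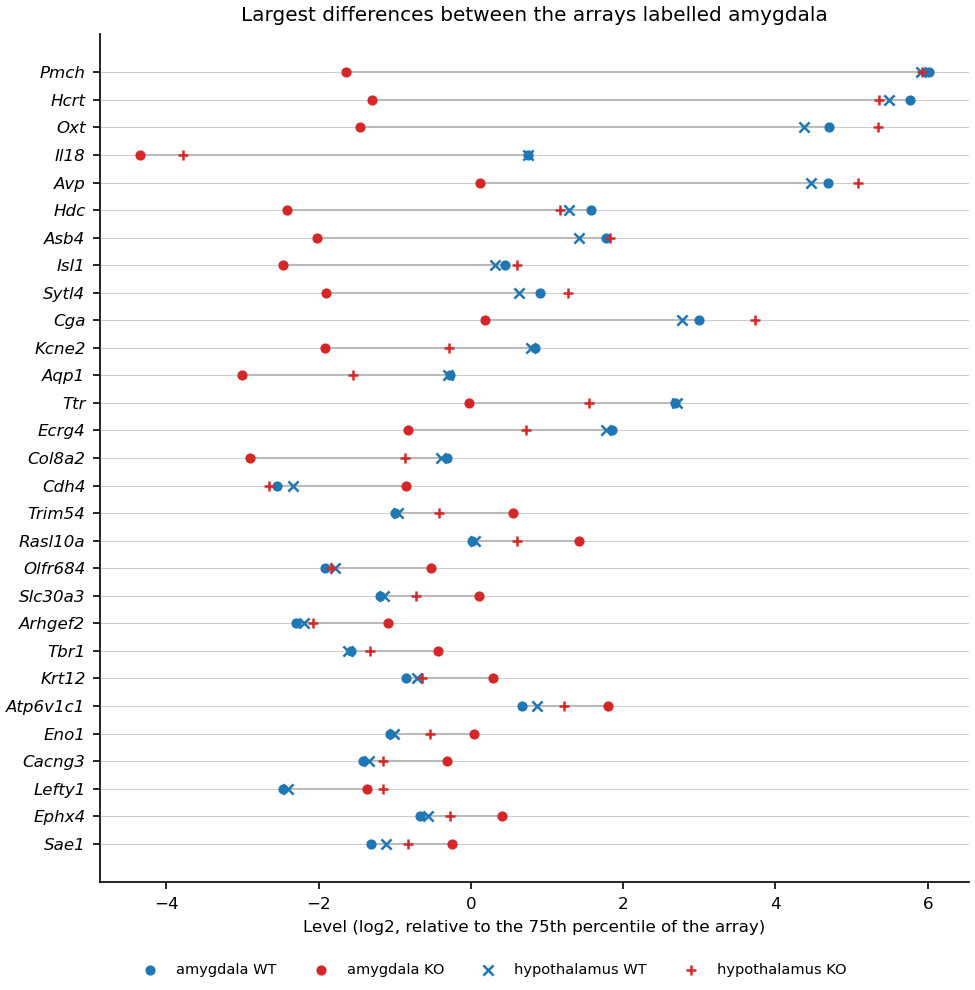
Levels of genes reported among the 15 of the largest negative and the 15 of the largest positive difference at a mean level of at least -2, on the 2 amygdala arrays (circles, joined by a line) and the 2 hypothalamus arrays (crosses), in log2 relative to the 75th percentile. For most genes of the upper block, such as Hcrt at 5.77, 5.48, 5.36 and -1.30, the amygdala KO array stands apart from the other 3, while Il18 is low on both KO arrays.

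Neuropeptides made mainly in the hypothalamus were lower as a group. Of 24 listed, 21 had a named probe and 17 were above background on both amygdala arrays. Of these, 15 were lower and 2 higher. By 2-fold, 12 were lower and 1 was higher, and the median was -1.48. The same 17 genes had a median of 0.18 in the hypothalamus pair and lay a median of 0.13 apart between both WT arrays. Their summed signal, in multiples of the 75th percentile, was 238.4 on the array labelled amygdala WT, 26.9 on the amygdala KO array, 207.1 on hypothalamus WT and 244.7 on hypothalamus KO. Only 1 of the 17, Kiss1, was alike in both KO arrays, against 11969 of all 13351 named genes measured. In bulk RNA, fewer cells of a type and less RNA per cell cannot be told apart.

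The peptides of the arcuate nucleus, which sense energy stores, covered a wide range. Agrp, an appetite-stimulating peptide, read -0.44 on the array labelled amygdala WT and -3.97 on the amygdala KO array, a difference of -3.52. Pomc, the precursor of melanocortins and endorphin, read 5.06 and 3.62, a difference of -1.44. In the hypothalamus pair both differed little, by -0.24 and 0.17. Cartpt, a peptide that curbs feeding, read 3.46 and 2.0, and a further probe of that gene gave -1.54 beside its -1.46. Ghrh, which releases growth hormone, read 1.35 and -1.01, a difference of -2.37. Kiss1, which drives the reproductive axis, read -2.0 and -2.66.

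Releasing hormones and peptides of other nuclei were also lower on the amygdala KO array. Gnrh1, the gonadotropin-releasing hormone gene, read -2.09 and -4.09, and Trh, the thyrotropin-releasing hormone gene, 0.37 and -0.93. Gal, the galanin precursor, read 3.20 on the array labelled amygdala WT and 1.33 on the KO array. These 3 genes were higher on hypothalamus KO than on hypothalamus WT, by 0.61, 0.69 and 0.19. Npb, the neuropeptide B gene, differed by -1.48, and Nmb (neuromedin B) and Adcyap1, which encodes the peptide PACAP, by -0.94 each. Qrfp and Ucn3, at levels between -3.75 and -2.14, were the members with a higher reading on amygdala KO, at differences of 1.61 and 0.26. Nmu, the neuromedin U gene, was well above background on the array labelled amygdala WT alone, at least 2.05-fold higher there. Npvf, Galp and Rln3 were not well above background on either array.

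Peptides expressed in many brain regions behaved otherwise. All 13 listed were measured, 5 lower (0 by 2-fold) and 8 higher (1 by 2-fold), and the median was 0.14 against -0.082 in the hypothalamus pair. Penk, the enkephalin precursor, read 6.12 and 6.26 on the amygdala arrays, and Sst, the somatostatin gene, 5.51 and 5.77. Cck, an abundant peptide of cortical neurons, read 5.37 on the array labelled amygdala WT and 6.03 on the amygdala KO array, beside 5.35 and 5.18 on the hypothalamus arrays. For these 3 the amygdala KO array was the highest of the 4. Npy and Vip differed by 0.38 and 0.39, and Ucn, the urocortin gene, by 1.06 at levels of -3.30 and -2.24. Tac1, Tac2 and Pnoc, which encode tachykinins and nociceptin, lay between -0.28 and -0.20, and Cort, Grp and Nts between -0.023 and 0.16. Pdyn, the dynorphin precursor, which magnocellular vasopressin neurons also express, had the most negative difference of the list, -0.94, at 4.40 and 3.46.

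**Figure D3:**
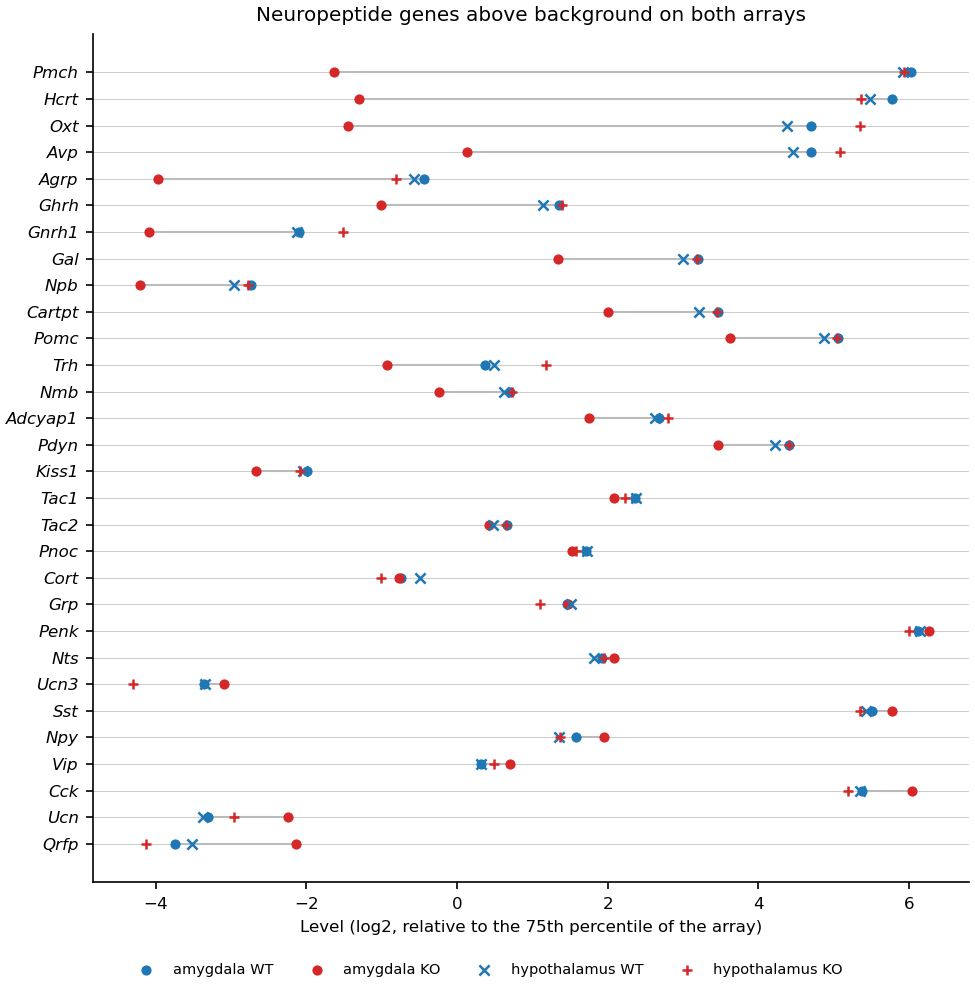
Levels of the 30 neuropeptide genes that were above background on both amygdala arrays, ordered by the difference between those arrays, with the hypothalamus arrays beside them; the axis is log2 relative to the 75th percentile. Peptides of the hypothalamus fill the upper rows with the amygdala KO array to the left, and Penk, Sst and Cck lie in the lower rows, with the amygdala KO array to the right of the other 3.

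Receptors and granule proteins of peptide signalling did not share a direction. Of 38 measured receptors 19 were lower and 19 higher, with a median of 0.0097 that turned to -0.13 under normexp background correction. The largest differences were those of Avpr1a (a vasopressin receptor, -2.83 and -4.84), Calcr (the calcitonin receptor, 0.77 and -1.23, with a further probe at a difference of -0.51), Cckar (-2.01 and -3.49) and Grpr (-1.58 and -2.46). These 4 were lower on the amygdala KO array than on each of the other 3. Of 17 dense-core granule and processing genes 8 were lower and 9 higher, 0 by 2-fold, with a median of 0.0031 that turned to -0.018 under quantile normalization. Pcsk1, a protease that cuts peptide precursors, read 0.17 and -0.56, with a further probe at a difference of -0.24, and Chga (chromogranin A) 5.41 and 4.97. Ptprn, a granule membrane protein, was higher, at 1.59 and 2.11.

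Regulators and enzymes of hypothalamic neurons were also mostly lower. Of 20 measured transcription factors of the hypothalamus 15 were lower (8 by 2-fold) and 5 higher (0 by 2-fold), and the median was -0.41 against 0.14 in the hypothalamus pair. This median was -0.17 at a mean level of at least -2, -0.20 with median scaling and -0.66 with no filter on dim probes. In the authors' deposited table, which holds fewer probes, it was -0.82. Nkx2-1, which specifies the ventral hypothalamus, read -1.49 on the array labelled amygdala WT and -4.44 on the amygdala KO array. Isl1, a LIM homeodomain factor of arcuate neurons, read 0.45 and -2.47 over 10 spots each, and Tbx3, an arcuate T-box factor, 1.33 and -0.97. On hypothalamus KO these 3 stood at -1.35, 0.61 and 1.40, near the array labelled amygdala WT. Otx2, which choroid plexus epithelium also expresses, differed by -2.36. Hmx3 and Hmx2, further homeodomain factors, were well above background on the array labelled amygdala WT but not on the KO array, at least 21.8-fold and 3.29-fold higher. Hmx3 read -1.11 on hypothalamus KO, above background.

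Non-peptide markers of the hypothalamus were lower in 14 of 17, by 2-fold in 5, and the median was -0.53. Hdc, the enzyme that makes histamine in the tuberomammillary nucleus, read 1.58 and -2.41 on the amygdala arrays and 1.29 and 1.17 on the hypothalamus arrays. Asb4, part of a ubiquitin ligase, read 1.77 and -2.03 beside 1.42 and 1.83, and Cited1, a transcriptional cofactor, 1.66 and -0.58 beside 1.54 and 1.92. Each of these was low on the amygdala KO array alone. Peg10 was at least 2.47-fold higher on the array labelled amygdala WT, and Pgr, the progesterone receptor gene, at least 1.91-fold higher on the KO array. Sytl4, which docks secretory granules and was named by size, read 0.91 and -1.90 beside 0.64 and 1.27.

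Genes of monoamine neurons were lower in 9 of 11, by 2-fold in 5, and the median was -0.77 beside 0.056 in the hypothalamus pair. This median was -0.29 both at a mean level of at least -2 and with no filter on dim probes, and -0.41 with the mean of a gene's probes. In the authors' deposited table, which holds fewer probes, it was -1.26. Slc18a2, the vesicular monoamine transporter, read -1.01 and -3.12 on the amygdala arrays, and a further probe differed by -3.73. Th, the first enzyme of dopamine synthesis, read -1.83 and -3.57, and Slc6a3, the dopamine transporter, -1.15 and -2.89. On the hypothalamus arrays all 3 lay between -1.94 and -0.92, within 0.54 of each other by genotype. Tph2, of serotonin synthesis, was well above background on the amygdala KO array alone. Its bound of 1.18-fold, 0.24 in log2, is about the size of the spot error, so no difference is shown. Serotonin receptors were higher in 8 of 11 with a median of 0.16 that turned to -0.027 under normexp, led by Htr2a (-4.18 and -3.24), Htr1a (-2.77 and -2.06), Htr2c (0.90 and 1.60) and Htr3a (-1.39 and -0.78). Steroid and thyroid hormone receptors were higher in 7 of 9, with a median of 0.18. Vdr, the vitamin D receptor, differed by 0.50, and Esr1 and Thrb by -0.53 and -0.43. Nr3c1, the glucocorticoid receptor, differed by 0.54, but its 2 further probes gave -0.12 and 0.12.

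Pituitary hormone genes were lower in 9 of 10, by 2-fold in 5, and the median was -1.06 against 0.13 in the hypothalamus pair. Cga, the shared alpha subunit of glycoprotein hormones, read 3.0 and 0.19 on the amygdala arrays and 2.77 and 3.73 on hypothalamus WT and KO. Prl, the prolactin gene, read 5.35 and 3.1 beside 5.10 and 5.80, and Tshb -2.90 and -4.74 beside -2.98 and -1.88. For all 3 the amygdala KO array was the lowest of the 4 and hypothalamus KO the highest. The summed signal of the list was 86.8, 25.2, 74.5 and 110.8 on amygdala WT, amygdala KO, hypothalamus WT and hypothalamus KO. Pou1f1, which defines several pituitary cell types, was not well above background on either amygdala array, and its part in the result was not tested.

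Every marker of choroid plexus and of ependyma that was well above background on both amygdala arrays was lower. Choroid plexus, the epithelium that makes cerebrospinal fluid, had 19 of 19 measured members lower, 16 by 2-fold, and a median of -1.56. Its list was also lower in the hypothalamus pair, with a median of -0.91. The pairs of the other regions went both ways. The list's median was 0.67 for hippocampus and 0.74 for striatum, against -0.051 for prefrontal cortex and -0.20 for olfactory bulb. These medians cover genes filtered on the amygdala arrays only, so they include readings not well above background in the region concerned. Ttr, the thyroxine carrier, read 2.68 and -0.023 on the amygdala arrays and 2.71 and 1.55 on hypothalamus WT and KO. Kcne2, a potassium channel subunit, read 0.84 and -1.92 beside 0.79 and -0.28, and Aqp1, a water channel, -0.28 and -3.01 beside -0.30 and -1.55. The order was the same for each: both WT arrays highest, hypothalamus KO between, and amygdala KO lowest. Elsewhere the probe of Ttr was well above background on both arrays in 2 of 5 regions, that of Aqp1 in 3 and that of Kcne2 in 4. Tmem72 and F5 were at least 5.18-fold and 5.06-fold higher on the array labelled amygdala WT, where they were above background and on the KO array not. The summed signal of the list was 74.6, 23.2, 74.1 and 44.4 on amygdala WT, amygdala KO, hypothalamus WT and hypothalamus KO, and its part in the result was not tested.

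Ependyma, the ciliated lining of the ventricles, had 13 of 13 members lower, 7 by 2-fold, and a median of -1.02 against 0.061 in the hypothalamus pair. Foxj1, the regulator of motile cilia, read 0.86 and -1.14 on the amygdala arrays and 0.73 and 0.94 on the hypothalamus arrays. Dynlrb2, a dynein light chain, read 1.44 and -0.95, and Dnah11, a dynein heavy chain, -2.57 and -5.30. Unlike Ttr, Foxj1 was low on the amygdala KO array alone. The summed signal was 17.3, 6.30, 15.6 and 17.1 in the order above, and its part in the result was not tested. Dnah5 was well above background on the KO array alone, at least 2.08-fold higher. Tanycytes, which line the floor of the third ventricle, had 7 of 12 markers lower and a median of -0.087 that turned to 0.13 under median scaling. Vim and Frzb, at -0.83 and 0.82, were its extremes.

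**Figure D4:**
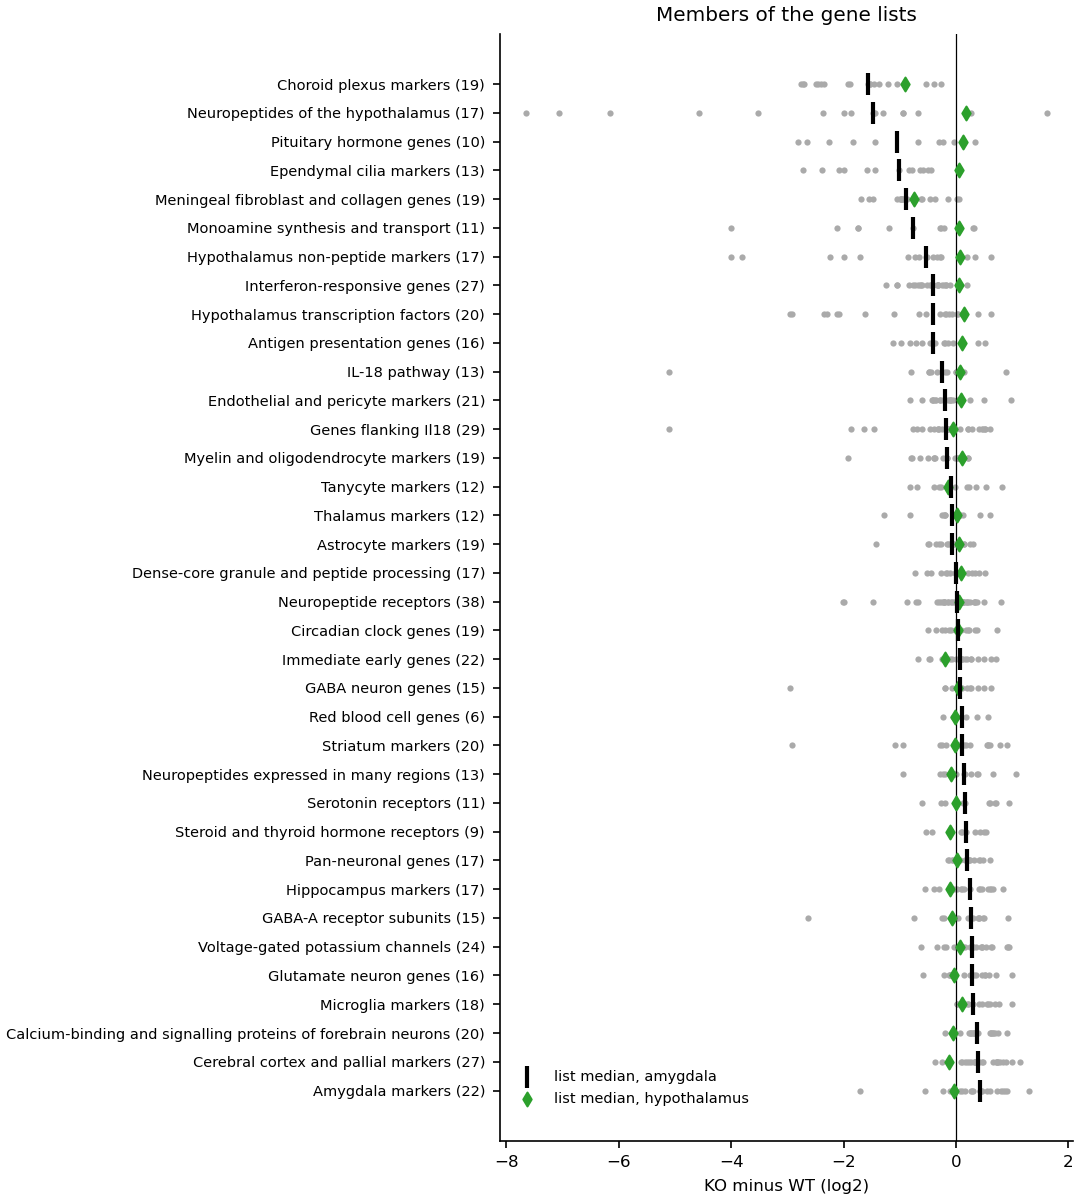
Grey points are the members of each of the 36 gene lists that were above background on both amygdala arrays (their number in brackets), placed by the KO minus WT difference in log2. Black bars give the list's median in the amygdala pair and green diamonds in the hypothalamus pair: choroid plexus (-1.56 and -0.91) and meningeal genes (-0.90 and -0.75) are low in both, ependyma (-1.02 and 0.061) in the first alone.

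Markers of forebrain neurons were mostly higher. Markers of the amygdala were higher in 18 of 22, with a median of 0.43, and of the cerebral cortex and pallium in 25 of 27, with a median of 0.39. The medians in the hypothalamus pair were -0.042 and -0.13. Slc30a3, which loads zinc into synaptic vesicles, read -1.2 and 0.11 on the amygdala arrays, beside -1.14 and -0.72 on the hypothalamus arrays. Tbr1, a transcription factor of cortical glutamate neurons, read -1.57 and -0.43 beside -1.61 and -1.32, and Slc17a7, their vesicular glutamate transporter, 0.33 and 1.33 beside 0.53 and 0.52. For these genes the amygdala KO array was the highest of the 4. Over the 5 other regions Tbr1 differed by 0.50 ± 0.63 (SD, n = 5 regions), with 1.60 in striatum. Its probe was well above background on both arrays in 4 of these regions. Lmo3 and Rspo2, also on the amygdala list, differed by 0.92 and 0.87, and Neurod6 and Emx2, pallial transcription factors, by 0.84 and 0.89, with a further Emx2 probe at -0.082. Dlk1, on the amygdala list and on that of the hypothalamus, was the exception by 2-fold, at -0.10 and -1.80.

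Other neuronal lists leaned the same way by small amounts. Glutamate neuron genes were higher in 10 of 16 (median 0.29), pan-neuronal genes in 13 of 17 (0.20), markers of the hippocampus in 13 of 17 (0.26) and of the striatum in 13 of 20 (0.11), and GABA neuron genes in 11 of 15 (0.073). Calcium-binding and signalling proteins of forebrain neurons were higher in 19 of 20 (0.37), led by Arpp21 at 3.28 and 4.18. Voltage-gated potassium channels were higher in 19 of 24 (0.28), with Kcnh3, Kcnv1 and the channel-interacting Kcnip2 at 0.93, 0.93 and 0.91. GABA-A receptor subunits were higher in 10 of 15 (0.26), with Gabrd, a subunit of extrasynaptic receptors, at 1.61 and 2.53. The largest difference of that list was negative, Gabrp at -2.63, and Gabrq differed by -0.75. Homer1, a synaptic scaffold, differed by 0.71, Nefm (a neurofilament) by 0.61 and Itpka, a kinase of dendritic spines, by 0.63. Rgs9, a regulator of striatal G-protein signalling, went the other way at 1.09 and 0.01, as did Zfhx3 (-1.29) and Tcf7l2 (-0.82) among thalamus markers. The largest differences of the striatum and GABA neuron lists were also negative, Isl1 at -2.92 and Nkx2-1 at -2.95. The thalamus list had 6 lower and 6 higher and a median of -0.076 that turned to 0.14 under median scaling.

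The largest positive differences at a mean level of at least -2 included genes on none of the lists. Cdh4, which encodes R-cadherin, read -2.55 on the array labelled amygdala WT and -0.85 on the amygdala KO array, beside -2.34 and -2.66 on the hypothalamus arrays. Trim54, a ubiquitin ligase known from muscle, read -1.0 and 0.55, and Rasl10a, a small GTPase, 0.013 and 1.42. Cacng3, an auxiliary subunit of AMPA receptors, read -1.41 and -0.31. The amygdala KO array was the highest of the 4 for each. Trim54, Rasl10a and Cacng3 differed by 0.54, 0.56 and 0.19 in the hypothalamus pair. Over the 5 other regions Cdh4 differed by 0.38 ± 0.68 (SD, n = 5 regions), with 1.51 in striatum. Its probe was well above background on both arrays in 4 of these regions. Olfr684 (1.39), Krt12 (1.14) and Ephx4 (1.07) were among the others that were not alike in both KO arrays. Arhgef2, at 1.21, had a further probe above background that gave 0.22.

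Microglia markers had a median of larger size than those of astrocyte and myelin genes. Microglia markers were higher in 18 of 18, with a median of 0.29 beside 0.11 in the hypothalamus pair. All 18 were alike in both KO arrays, as were 11969 of all 13351 named genes measured. Gpr34 and Cx3cr1, both receptors of resting microglia, read -2.23 and -1.24, and -0.70 and 0.067, on the amygdala arrays. Siglech and P2ry12 differed by 0.69 and 0.61. The summed signal of the list was 53.3, 62.1, 51.2 and 57.2 on amygdala WT, amygdala KO, hypothalamus WT and hypothalamus KO. Astrocyte markers (12 of 19 lower, median -0.074) and myelin genes (12 of 19 lower, -0.16) had medians that turned to 0.14 and 0.058 under median scaling, and endothelial and pericyte markers (16 of 21 lower, -0.19) one that turned to 0.023. Agt, the angiotensinogen gene of astrocytes, read 4.69 and 3.27, Mbp, the myelin basic protein gene, 6.43 and 5.63, and Acta2, of smooth muscle, 1.74 and 2.71. Further probes of Mbp gave differences of -0.61 and 0.029, and one of Acta2 gave -0.32. Red blood cell genes were higher in 4 of 6 (0.10), with Alas2 at -0.24 and Hba-a1 at 0.37.

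Genes of interferon response and antigen presentation were lower on the amygdala KO array. Of 27 interferon-responsive genes 25 were lower, 3 by 2-fold, and the median was -0.42 beside 0.046 in the hypothalamus pair. The interferon median came to -0.20 with median scaling and -0.29 under quantile normalization. Ddx58, the sensor RIG-I, read -2.97 and -4.21, and Usp18 and Ifit1, both induced by interferon, differed by -1.05 each at levels below -3. Ifitm3, a membrane antiviral factor, read 1.74 and 0.90. Of 16 antigen presentation genes 14 were lower, with a median of -0.40 against 0.11 in the hypothalamus pair. This median was -0.19 with median scaling and -0.18 with hypothalamus WT in place of the array labelled amygdala WT. All 16 were alike in both KO arrays, as were 11969 of all 13351 named genes measured. The class II genes H2-Aa, Cd74, H2-Ab1 and H2-DMb1 led, at -1.12, -0.98, -0.81 and -0.72, and in the hypothalamus pair they differed by -0.58, -0.51, -0.56 and -0.27. Ciita, the class II transactivator, was well above background on the amygdala KO array alone. Its bound of 1.16-fold, 0.21 in log2, is about the size of the spot error, so no difference is shown.

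The IL-18 pathway itself held few large differences beside Il18. Of 13 measured members 10 were lower, Il18 among them, and 3 higher, with a median of -0.25. This median was -0.10 under quantile normalization, -0.041 with median scaling and -0.0039 at a mean level of at least -2. Casp1, the protease that activates IL-18, read -1.98 and -1.09 on the amygdala arrays and -1.90 and -1.57 on the hypothalamus arrays, so that both KO arrays were above both WT arrays. Irak4 and Irak1, kinases below the receptor, differed by -0.80 and -0.48, against -0.10 and 0.15 in the hypothalamus pair. Ifng, the interferon that IL-18 induces in lymphocytes, was near the limit of detection, at least 1.80-fold higher on the array labelled amygdala WT. Both receptor chain genes, Il18r1 and Il18rap, and Il1b were not well above background on either array. Immediate early genes had 9 of 22 lower and a median of 0.062, with Fos at -0.68, Fosb at 0.62 and Jun at 0.50, beside a median of -0.20 in the hypothalamus pair. Circadian clock genes had 7 of 19 lower and a median of 0.037, with Npas2 at 0.74 and Cry1 at -0.50, where a further Cry1 probe gave 0.28.

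The probes alike in both KO arrays set tissue differences between those arrays aside. By construction, a difference in this set departs from that of the hypothalamus pair by the gap between both WT arrays, to within 1.5-fold. Of the 24184 alike probes 230 (0.951%) were 2-fold lower and 68 (0.281%) higher. Among the 4109 that were not alike these were 1312 (31.9%) and 116 (2.82%). The split uses the amygdala KO reading itself and so limits the difference an alike probe can have. A lower share of 2-fold differences among alike probes was thus built into the choice and is not a result. At a mean level of at least -2 there were 38 lower (0.242%) and 30 higher (0.191%) among 15725 alike probes. Of the 38, 33 were also lower in the hypothalamus pair, with a median there of -0.57, and of the 30, 0 were, with a median of 0.33. Just inside the limit of likeness lay Fam168a and Denn2b, 0.58 and -0.58 apart between the KO arrays, with differences of -0.059 and -0.39. Just outside it lay Ptprc and Atat1, each 0.59 apart, with differences of 0.50 and 0.57.

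Among named genes of that mean level, 148 were 2-fold lower, 128 of them not alike and 20 alike, and 23 were higher, 15 not alike and 8 alike. The 20 alike genes were of 3 kinds. For 12 of them the hypothalamus pair was also lower by at least 1.5-fold: Il18, Nnmt, Cox8b, Slc47a1, Igf2, Mgp, Cryab, Fbln1, Serpind1, Trps1, Ogn and Slc13a4. For 4, both WT arrays lay at least 1.5-fold apart: Arrdc2, C5ar2, Timp1 and Ninj2. The last 4, Gpx8, Elf4, Fxyd5 and Upf3b, met neither condition. Some of these genes lay outside the naming rule and were listed after their values were seen.

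The first kind included genes of the meninges. Igf2, a growth factor made by meninges and choroid plexus in the adult brain, read 3.61 and 2.06 on the amygdala arrays and 3.53 and 2.29 on the hypothalamus arrays. Slc47a1, an exporter of organic cations, read 0.17 and -1.51 beside 0.18 and -1.63, and Mgp, which inhibits calcification of matrix, 2.49 and 1.01 beside 2.22 and 1.2. In each, both WT arrays were high and both KO arrays low. Over the 5 other regions, hypothalamus included, the differences lay on either side of 0, at -0.35 ± 0.56, -0.61 ± 0.74 and -0.28 ± 0.45 (SD, n = 5 regions). Meningeal fibroblast and collagen genes as a list were lower in 17 of 19, by 2-fold in 4, with a median of -0.90. Of the 19, 17 were alike in both KO arrays, a share near that of all named genes (11969 of 13351). In the hypothalamus pair the list had a median of -0.75. Its summed signal was 35.5 and 16 on amygdala WT and KO and 32.8 and 16.3 on hypothalamus WT and KO, and its part in the result was not tested. Col1a1 and Slc6a13, its defining markers, differed by -0.76 and -0.87 and were above background on all 4 arrays.

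Nnmt, which methylates nicotinamide, read -0.80 and -2.67 on the amygdala arrays and -0.82 and -2.41 on the hypothalamus arrays. Cox8b, a cytochrome c oxidase subunit, read -0.79 and -2.60 beside -0.94 and -2.02, and Fbln1, a matrix protein, -0.14 and -1.27 beside -0.21 and -0.81. All 3 were low on both KO arrays. Over the 5 other regions, hypothalamus included, the difference of Nnmt was -0.63 ± 0.79 and that of Cox8b 0.053 ± 0.74 (SD, n = 5 regions), each on either side of 0. Slc13a4, a sulfate transporter of choroid plexus and meninges, differed by -1.04 here and -1.28 in the hypothalamus pair.

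**Figure D5:**
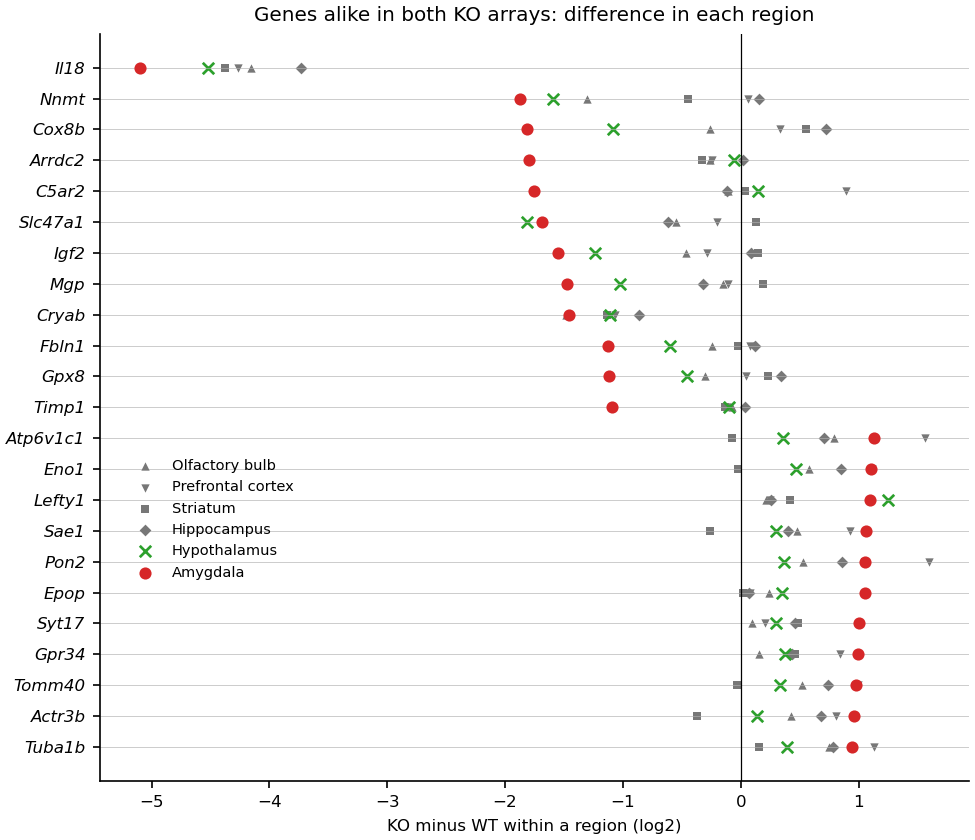
KO minus WT difference in log2 of genes reported among the 12 lower and 12 higher of the largest size that were alike in both KO arrays, with red circles for the amygdala pair, green crosses for the hypothalamus pair and grey symbols for the other regions. Il18 and Cryab (-1.46 in the amygdala pair, -1.48 to -0.86 elsewhere) are low in every region, whereas Arrdc2, C5ar2 and Timp1 lie near or above 0 outside the amygdala pair.

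Genes with a gap between both WT arrays formed the second kind. C5ar2, a receptor for complement C5a, read -0.82 on the array labelled amygdala WT, -2.58 on amygdala KO, -2.78 on hypothalamus WT and -2.64 on hypothalamus KO. Arrdc2, an arrestin-domain protein, read -1.09, -2.88, -2.45 and -2.50 in that order, and Timp1, an inhibitor of matrix proteases, -0.68, -1.77, -1.37 and -1.47. The array labelled amygdala WT alone was high in each. Tbx19, a pituitary transcription factor, showed the same at -2.11, -4.76, -4.14 and -4.12, and so did Gabrp, a GABA-A receptor subunit, at -1.27, -3.90, -3.71 and -4.05. With hypothalamus WT in place of the array labelled amygdala WT, C5ar2 differed by 0.20. Gpx8, a peroxidase of the endoplasmic reticulum, belonged to neither kind and read 0.31, -0.80, 0.15 and -0.30.

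The 8 alike named genes that were 2-fold higher included Atp6v1c1, Eno1, Lefty1, Sae1, Pon2, Epop and Syt17. Lefty1, an inhibitor of Nodal signalling, was the one that was also higher by 1.5-fold in the hypothalamus pair, at -2.46 and -1.37 in the amygdala and -2.40 and -1.15 in the hypothalamus. Atp6v1c1, a subunit of the proton pump of lysosomes and synaptic vesicles, read 0.67 and 1.80 beside 0.88 and 1.23. Eno1, a glycolytic enzyme, read -1.07 and 0.041 beside -1.0 and -0.54, and Pon2, a paraoxonase, -0.80 and 0.26 beside -0.60 and -0.24. For Atp6v1c1, Eno1 and Pon2 the hypothalamus KO array lay between the WT arrays and the amygdala KO array. Pon2 was higher in all 5 other regions, by 0.88 ± 0.48 (SD, n = 5 regions), and Lefty1 by 0.48 ± 0.44 (SD, n = 5 regions). Sae1, an enzyme of SUMO conjugation, Epop, a partner of Polycomb complexes, and Syt17, a synaptotagmin, differed by 1.06, 1.05 and 1.0. Gpr34, Tomm40, Actr3b and Tuba1b followed just under the 2-fold limit, from 0.99 to 0.94.

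Genes around Il18 on chromosome 9 were described by their order in the annotation, counted in named genes from Il18. Cryab, a small heat shock chaperone 9 genes away, read 2.88 and 1.42 on the amygdala arrays and 2.77 and 1.66 on the hypothalamus arrays. It was lower in all 5 other regions, at -1.13 ± 0.22 (SD, n = 5 regions), and a further probe gave -0.78 in the amygdala pair. Alg9, a mannosyltransferase 13 genes away, read 0.92 and 0.32, a difference of -0.60 beside -0.61 ± 0.11 (SD, n = 5 regions) elsewhere. Both genes were low in every region. Rexo2, a nuclease 16 genes away, was higher, at 1.2 and 1.69, beside 0.42 ± 0.085 (SD, n = 5 regions). Fdx1, a ferredoxin 20 genes away, read 1.16 and 1.57, a difference of 0.41 beside 0.59 ± 0.15 (SD, n = 5 regions). Sdhd and Timm8b, which encode mitochondrial proteins at a shorter distance, differed by -0.14 and 0.22.

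Of the 29 measured genes on the flanking list, Il18 included, 19 were lower (4 by 2-fold) and 10 higher (0 by 2-fold), and the median was -0.18, which turned to 0.033 under median scaling. Ttc12, 5 genes away, was lower at -1.94 and -3.57, with a further probe at -0.98, and it read -1.97 on hypothalamus KO. It was lower in 1 of the other 5 regions, and its KO arrays were not alike. Pts, an enzyme of tetrahydrobiopterin synthesis 2 genes away, differed by -0.25 in the amygdala pair and by -0.50 ± 0.15 (SD, n = 5 regions) elsewhere. Plet1, Bco2 and Atm were well above background on the array labelled amygdala WT and not on the KO array, at least 4.48-fold, 2.02-fold and 1.87-fold higher. In the hypothalamus pair these 3 genes differed by -1.05, -1.18 and -1.21. Tex12, Btg4 and Htr3b were not well above background on either amygdala array.

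Outside the probes measured on both arrays, 738 were well above background on the array labelled amygdala WT alone and 1736 on the KO array alone, and 10286 on neither. By named genes these were 142 and 534. These counts are out of 41174 probes and 16355 named genes. The limit of detection reached lower on the KO array. Its lowest signal counted as well above background was -5.41, against -4.93 on the array labelled amygdala WT. The part of this limit in the larger counts on the KO array was not tested.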

How the data were processed

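Each deposited file is the scanner output of 1 array, a 1-colour (Cy3) hybridisation. The file headers name version 9.5.3.1 of Agilent Feature Extraction. Per the file headers, this software had subtracted background from the processed intensity and detrended it, with no scaling to other arrays. A further table holds KO over WT ratio values on a linear scale that the authors calculated and deposited. For 21938 amygdala probes it matched the processed intensity ratio up to a constant, -0.30 in log2, whose choice is not stated.

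From the intensity, log2 was taken and each array's 75th percentile over 43379 gene spots subtracted. Spots that the software marked as outliers, 95 on each amygdala array, were left out and the spots of a probe averaged. Accessions were matched to a RefSeq gene table of GRCm38.p6, used for names and gene order only, which named 22944 of 41174 probes (55.7%). A gene stands by its probe of the highest mean over 12 arrays. Among 4042 genes with several measured probes, 96.2% had probes less than 1 log2 unit apart. Work was done in Python 3.11.15 (pandas 2.3.3, numpy 2.4.6) and R 4.3.3 (limma 3.58.1).

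No test was possible with 1 array a side. The number of arrays limits the precision. A probe not well above background on 1 array has a bound, the bright reading over the higher of its own dim reading and the lowest well-above-background signal of that array. Named were the 15 largest differences each way at a mean level of at least -2, the 12 largest each way among genes alike in both KO arrays, Il18, up to 4 members of the largest size per list and members above background on 1 array, and any neuropeptide or gene flanking Il18. Some genes that this rule names are not reported here. Of 753 entries in the 36 lists, 56 had no named probe. The comparison, the lists and the rule were chosen with earlier results of these data known.

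Alternatives were median scaling, quantile normalization, normexp background correction (offset 50, on the median signals, since no mean signal column was among those used), other filters on dim probes, outlier spots kept, the authors' deposited ratio, the mean of a gene's probes, hypothalamus WT as control, and other limits of size and likeness.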

Additional observations from a re-analysis of the deposited data

Results flagged for a closer look

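For 4 genes the KO array was lower in the amygdala pair and higher in the hypothalamus pair by at least 1.5-fold, among the genes named by size. Oxt, the oxytocin gene, differed by -6.15 in the amygdala pair and by 0.98 in the hypothalamus pair. Avp, the vasopressin gene, differed by -4.57 and 0.62. Sytl4, which acts in the docking of secretory granules, differed by -2.81 and 0.64, and Cga, the glycoprotein hormone alpha subunit gene, by -2.80 and 0.96. All 4 were at their highest on hypothalamus KO among both pairs of arrays. With 1 array per region and genotype, the difference between the pairs was not tested.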

How the results depend on the processing

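The counts depended on the processing. Lower and higher probes, 1560 and 190, came to 986 and 629 with median scaling, 577 and 44 with normexp, 458 and 68 at a mean level of at least -2, 2944 and 764 with no filter on dim probes, 3670 and 1702 at 1.5-fold and 155 and 14 at 4-fold. Quantile normalization gave 969 lower. Among probes alike in both KO arrays, 230 and 68, the counts were 86 and 15 with normexp, 38 and 30 at a mean level of at least -2, 622 and 331 with no filter, 145 and 17 with hypothalamus WT as control, 118 and 15 with a stricter limit of likeness and 729 and 132 with a limit of 2-fold. The authors' deposited ratio gave 145 lower there, and median scaling 111 higher. That ratio covers 21938 amygdala probes against 28365 measured here, so its values rest on another set of probes. Median scaling moved the median of all probes to 0.19, that of the hypothalamus peptides (-1.48) to -1.27 and that of widespread peptides (0.14) to 0.36. The hypothalamus peptides stood at -1.87 at a mean level of at least -2 and at -1.88 in the authors' deposited ratio.

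The medians of 5 of the 36 lists, those of hypothalamus peptides, amygdala markers, choroid plexus, ependyma and meninges, moved by at most 1.5 times under every alternative run on them. Those of 11 moved further, or changed sign, under median scaling alone, and those of 20 under another alternative. Among the 36, 9 changed sign under a scaling or background alternative, among them endothelial and pericyte markers at 0.023, myelin at 0.058 and genes flanking Il18 at 0.033 with median scaling, and serotonin receptors at -0.027 with normexp. Of 669 values of 77 named genes of 2-fold or more, 65 were under 2-fold and 1 had the opposite sign, C5ar2 at 0.20 with hypothalamus WT as control. Causes were not tested beyond what each alternative changes by construction. No paired analysis was possible because the amygdala comparison holds 1 pair of arrays and gives no test. The pairs of the other regions stand beside it as differences. Signal over background limits dim probes, which held most 2-fold differences.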
